A study of Homo sapiens with 12 samples.

Results

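The intermediate filament genes NEFL, NEFM, NEFH, VIM, KRT7, KRT8, KRT18, KRT19, NES and LMNA were followed as a set of 10 among the 58302 genes listed for each library. They were chosen by name, and NEFL was selected on its FPKM with siNUF2 against siControl, which was lower with siNUF2 in both cell lines. The NEFL difference between siNUF2 and siControl is therefore given as a description without a test. RNA was sequenced from 12 libraries in 4 groups of 3. The lines 769-P and ACHN, both labelled as clear cell renal cell carcinoma (ccRCC) cells, were each transfected with siRNA against NUF2 (siNUF2) or with control siRNA (siControl), and RNA was taken at 48 h. The controls were thus transfected cells too, and no untransfected cells were compared. According to the study's supplement, siRNAs were mixed for NUF2 knockdown. An effect of losing NUF2 therefore cannot be told apart from any other effect of that mix. Where the replicates came from is not stated, so p-values measure the spread between these libraries, which may be technical. Levels are FPKM, sequenced fragments scaled to exon length and library size, which allow genes of different length to be compared.

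Intermediate filaments are the rope-like polymers that give cells mechanical strength, and most members of the family are used as markers of cell type. Keratins form obligate pairs of a type I and a type II protein: KRT8 (type II) with KRT18 (type I) is the basic pair of simple epithelia such as the kidney tubule, while KRT7 and KRT19 mark ducts and the distal nephron. Vimentin (VIM, type III) is the filament of mesenchymal cells and is often kept together with keratins in renal carcinoma cells. NEFL, NEFM and NEFH encode the light, medium and heavy neurofilament chains of axons, nestin (NES) is the filament of neural and other progenitors, and LMNA encodes lamins A and C of the nuclear lamina. NUF2 is a subunit of the Ndc80 complex, which ties kinetochores to spindle microtubules.

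The libraries held 28926116 to 38309168 reads assigned to genes, as recovered from the FPKM steps. NUF2 was at 4.17, 3.86 and 3.01 FPKM with siNUF2 and at 19.4, 17.8 and 17.8 FPKM with siControl in 769-P. The ACHN libraries had 2.16, 5.14 and 4.25 FPKM against 11.6, 15 and 14.8 FPKM. NUF2 groups did not overlap in either line, with means at 20.1% and 27.9% of control. PAX8, a transcription factor of renal epithelium, was at 44.7 to 199 FPKM, whereas CA9, a defining marker of ccRCC, was at no more than 0.121 FPKM in any library. All 5 leukocyte and 4 endothelial marker genes were under 0.5 FPKM throughout. The ACHN replicates were farther apart than those of 769-P. Of 15116 genes tested in ACHN, 622 (4.11%) differed by 2-fold or more, in the same direction under both siRNAs, between replicate 1 and the mean of the others, 716 (4.74%) for replicate 2 and 274 (1.81%) for replicate 3, against at most 0.911% in 769-P. Among the members, NEFL was higher and KRT8 and KRT18 lower in replicate 1 than in the others, and KRT7 was lowest in replicate 2. Calls that rest on a replicate number are given with and without it. In such bulk samples fewer cells expressing a gene and less RNA per cell cannot be told apart.

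The members fell into abundant, intermediate and barely detected transcripts, and the order differed between the lines. With siControl, VIM was the most abundant member in 769-P at 144 ± 16.5 FPKM (SD, n = 3). KRT8 followed at 91.9 ± 12 FPKM, without overlap with VIM. LMNA was at 74.0 ± 9.35 and KRT18 at 60.1 ± 10.8 FPKM, and the range of LMNA overlapped those of KRT8 and KRT18. NEFL, at 10.9 ± 2.78 FPKM, came next and lay above the keratin KRT7 at 2.49 ± 0.538 FPKM, without overlap. In ACHN the order was led by KRT19 at 277 ± 90.5 FPKM, above VIM at 152 ± 25.1, KRT8 at 119 ± 54.4 and LMNA at 99.9 ± 8.07 FPKM; the range of KRT8 overlapped those of VIM and LMNA, which did not overlap each other. KRT18 was at 60.8 ± 22.7, KRT7 at 18.7 ± 8.14 and NEFL at 17.2 ± 19 FPKM (SD, n = 3 each), and the ranges of KRT7 and NEFL overlapped.

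**Figure D1:**
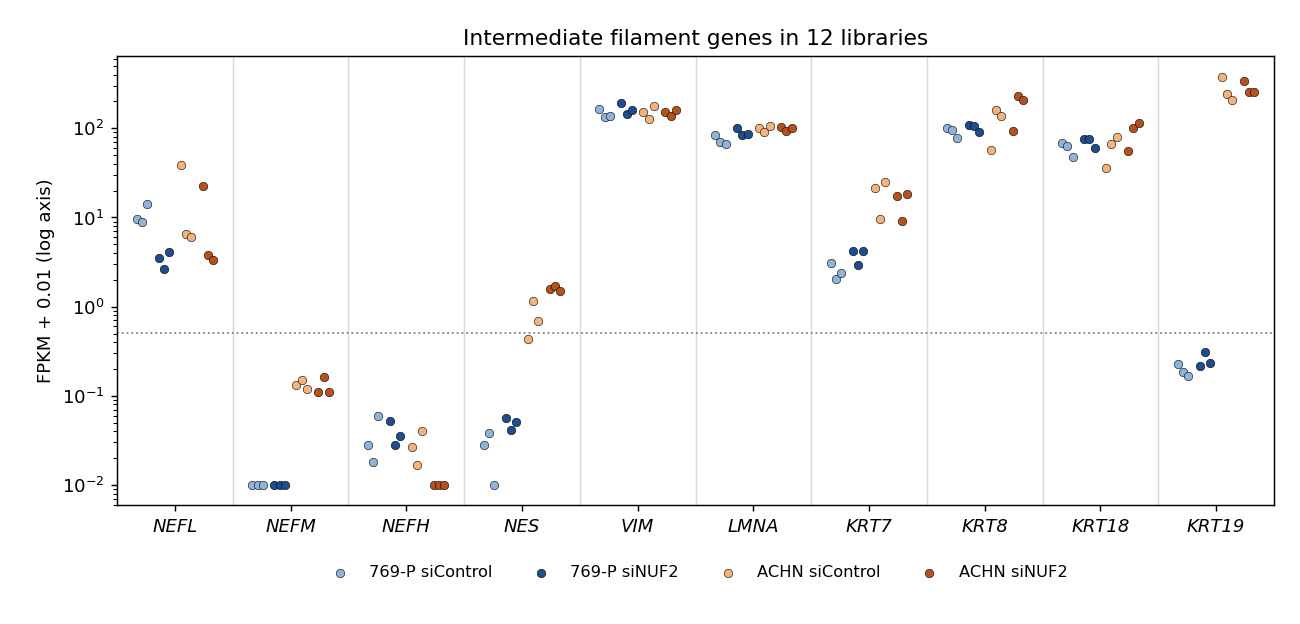
FPKM + 0.01 on a log axis for the 10 members, with 1 point per library and 1 colour per group; the dotted line marks 0.5 FPKM, the filter on low values. KRT19 sits between 0.159 and 0.298 FPKM in 769-P and between 210 and 380 FPKM in ACHN, and NEFL is the gene with 1 ACHN replicate far above the others under both siRNAs.

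Between the lines under control siRNA, KRT7 and LMNA were called higher in ACHN, and KRT19 was near 0 in 769-P and the most abundant member in ACHN (limma with Benjamini-Hochberg adjustment over all genes tested). Of all 15376 genes tested, 29.3% were called higher in ACHN and 32.2% higher in 769-P, so the 2 lines differ at most genes and a call by itself says little. The ductal keratin KRT19 was at 0.218, 0.174 and 0.159 FPKM in 769-P, which is 12 to 15 reads a library. In ACHN it was at 380, 242 and 210 FPKM. It passed the filter on low values only through ACHN, where it is high, so no test or fold is given for it. KRT7, a type II keratin that can pair with KRT19, was at 3.08, 2.02 and 2.38 FPKM in 769-P and at 21.3, 9.62 and 25.3 FPKM in ACHN, a difference, 769-P minus ACHN on the log2(FPKM + 0.1) scale, of -2.73 ± 0.364 (SE; adjusted p = 0.000723). LMNA differed by -0.40 ± 0.119 (adjusted p = 0.0239), with 84.5, 71.0 and 66.5 FPKM in 769-P and 102, 90.9 and 107 FPKM in the other line. The LMNA call depended on single libraries: adjusted p rose to 0.0885 and 0.0854 without replicates 2 and 3 of 769-P, and to 0.0565 and 0.0763 without replicates 1 and 3 of ACHN.

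The remaining members tested were not told apart between the lines. VIM differed by -0.03 ± 0.148 on the log2 scale (adjusted p = 0.874) and KRT18 by 0.08 ± 0.304 (adjusted p = 0.829). KRT8 differed by -0.21 ± 0.374 (adjusted p = 0.652), but KRT8 was low in replicate 1 of ACHN, at 57.4 FPKM against 161 and 138 FPKM, and without that library the difference was -0.66 ± 0.139 (adjusted p = 0.00844). For NEFL the difference was -0.08 ± 0.695 (adjusted p = 0.929). Without replicate 1 of ACHN it turned to 0.80 ± 0.208, higher in 769-P (adjusted p = 0.0188), so which line has more NEFL rests on that library.

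NES was nearly confined to ACHN, with 74, 249 and 133 reads there under control siRNA and 3, 5 and 0 reads in 769-P; it did not pass the filter on low values in this comparison. NEFM had no read in any 769-P library, which allows up to 3 reads in each, and 15 to 24 reads in each ACHN library, 0.0999 to 0.152 FPKM. NEFM shares 1706 exon bases, 38.9% of its exon length, with AF106564.1 on the opposite strand, which reached at most 0.649 FPKM. Whether reads were counted by strand is not given, so how reads of that stretch were assigned is unknown. NEFH had 0 to 6 reads in every library. The neurofilament light chain was therefore measured almost without its medium and heavy partners: it had 329 to 1971 reads a library in 769-P and 496 to 5315 in ACHN.

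For VIM and NES the reference promoter sequences were at hand (RefSeq, GRCh38.p14; 250 bases before to 50 after a start site), and they are shown because one gene was abundant in both lines and the other was near 0 in 769-P. Entries were matched by symbol for 4 members, VIM, NES, KRT8 and LMNA. Both are written 5′ to 3′ along the gene's own strand, at chr10:17227991-17228290 (plus strand) for VIM and at chr1:156677358-156677657 (minus strand) for NES. Capitals mark the GC box letters GGGCGG on either strand.
VIM: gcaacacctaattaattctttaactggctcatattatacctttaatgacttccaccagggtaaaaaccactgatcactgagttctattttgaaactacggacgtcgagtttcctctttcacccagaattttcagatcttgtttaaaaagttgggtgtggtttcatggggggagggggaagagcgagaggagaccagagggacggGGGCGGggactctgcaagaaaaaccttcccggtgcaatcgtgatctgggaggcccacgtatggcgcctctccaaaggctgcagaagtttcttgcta
NES: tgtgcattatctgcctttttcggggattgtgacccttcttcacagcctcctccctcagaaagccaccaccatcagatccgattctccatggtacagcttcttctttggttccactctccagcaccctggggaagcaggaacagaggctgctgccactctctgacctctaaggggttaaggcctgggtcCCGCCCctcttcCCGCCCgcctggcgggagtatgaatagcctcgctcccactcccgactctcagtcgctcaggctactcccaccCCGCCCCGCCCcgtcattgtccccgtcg
The VIM window held 1 GC box and had a GC content of 48.0%; the NES window held 4, the last 2 sharing a base, and had a GC content of 60.3%. GC boxes were found in 45% of the 35116 promoter windows. Neither window held the TATA box letters TATAAA, found in 11.5% of windows, or the letters CCAAT, found in 34.6%, on either strand. A match is a description of letters and not of a bound site. In GENCODE 29 on GRCh38, VIM spans chr10:17228259-17237593 (plus strand), NES chr1:156668763-156677397 (minus) and LMNA chr1:156082573-156140089 (plus). KRT7 spans chr12:52232520-52252186 (plus), KRT19 chr17:41523617-41528308 (minus) and NEFH chr22:29480230-29491390 (plus). The FPKM steps matched the merged exon length of each member.

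NEFL was lower with siNUF2 in every same-numbered pair of libraries in both lines, and proportionally more so in 769-P. In 769-P it was at 3.48, 2.64 and 4.11 FPKM with siNUF2 and at 9.58, 8.97 and 14.1 FPKM with siControl. These groups did not overlap, and the mean with siNUF2 was 31.4% of the control mean. In ACHN it was at 22.8, 3.78 and 3.34 FPKM with siNUF2 and at 39.1, 6.50 and 6.05 FPKM with siControl, so the groups overlapped, with replicate 1 far above replicates 2 and 3 under both siRNAs. Taken pair by pair, the ACHN libraries were at 58.3%, 58.2% and 55.2% of their control, and the 769-P libraries at 36.4%, 29.4% and 29.3%.

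**Figure D2:**
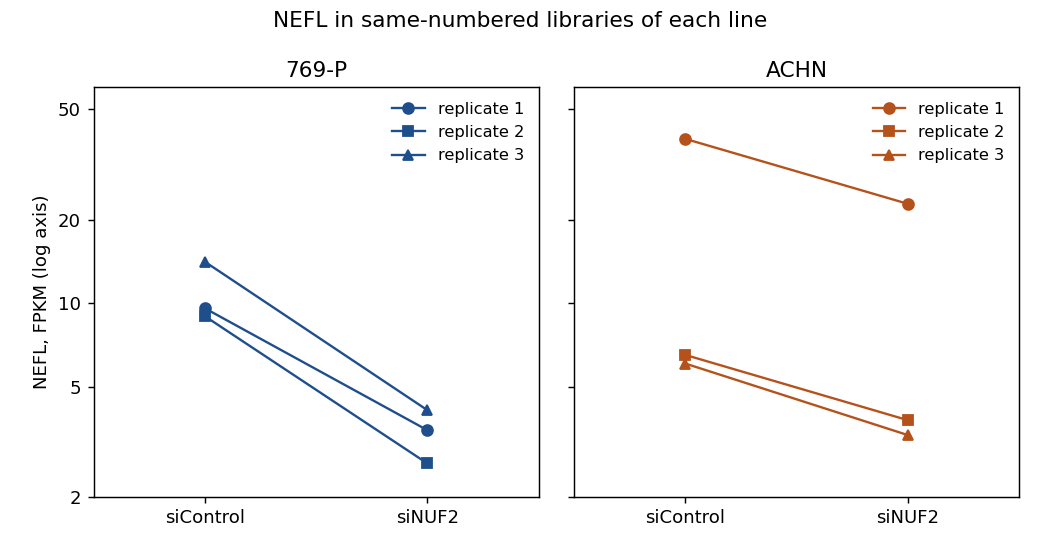
NEFL in FPKM on a log axis, with siControl on the left and siNUF2 on the right of each panel; lines join libraries with the same replicate number. The ACHN lines are nearly parallel although replicate 1 starts at 39.1 FPKM and the others at 6.50 and 6.05 FPKM.

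On the log2 scale the NEFL pair differences in ACHN were -0.78, -0.76 and -0.84, with an SD of 0.0389, while the controls themselves had an SD of 1.51. In 769-P they were -1.43, -1.73 and -1.75, with an SD of 0.176 against 0.347 among the controls. The fitted log2 fold change was -1.63 ± 0.214 (SE) in 769-P and -0.78 ± 1 in ACHN when the libraries were taken as unpaired; pairing same-numbered libraries lowered the SE to 0.0801 and 0.0491. Without the control of replicate 1 alone, the unpaired ACHN value was 0.10 ± 0.872, since the high siNUF2 library was then left without its partner. The 2 lines' responses differed by -0.86 ± 1.12 unpaired and by -0.86 ± 0.0982 paired, given here without a test.

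The height of NEFL in replicate 1 of ACHN was shared by few genes. It was 6.15-fold above the mean of replicates 2 and 3 with siControl and 6.26-fold with siNUF2 (means of log2 levels), and 23 of the 15116 genes tested, NEFL included, were as high in both groups. In the same libraries KRT8 was at 0.386 and KRT18 at 0.492 of the other control replicates, while VIM and LMNA were both at 1.04. The keratin pair was thus low where NEFL was high, in the same replicate number of each siRNA group; whether the 2 are related was not tested.

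Genes whose levels followed NEFL most closely over the 12 libraries were SEMA4D (Pearson r = 0.963), MEGF9 (0.959), DHPS (0.934), PECR (0.920) and ABCC10 (0.919), the highest of 16563 genes ranked. With the mean of each line taken out, they were ABCC5 (0.977), MEGF9 (0.972), ST6GALNAC4 (0.963), CTC1 (0.962) and SEMA4D (0.961). The points share lines, siRNAs and the high replicate of ACHN, so these values describe likeness only. MEGF9, a membrane protein with EGF-like repeats, was at 2.02, 2.23 and 2.64 FPKM with siControl and at 1.25, 1.04 and 0.996 FPKM with siNUF2 in 769-P. The ACHN values were 5.58, 2.16 and 2.31 against 4.30, 1.53 and 1.12 FPKM, with replicate 1 the highest, as for NEFL. SEMA4D, which encodes a semaphorin, was at 8.44 and 8.39 FPKM in replicate 1 of ACHN and at 3.29 to 4.42 FPKM in the others.

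**Figure D3:**
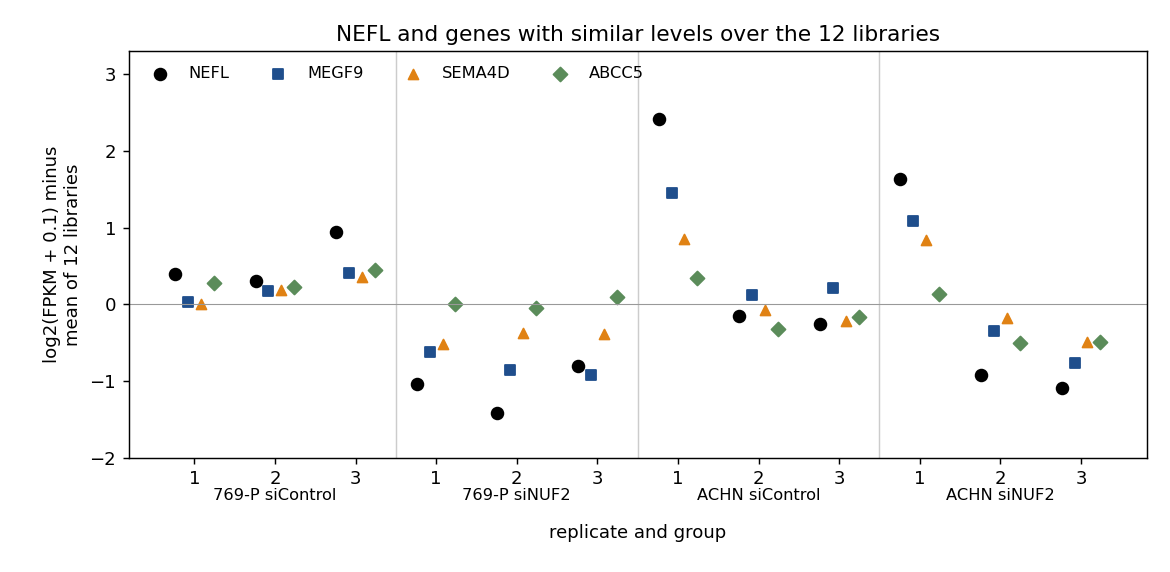
log2(FPKM + 0.1) minus the mean of the 12 libraries for NEFL, for MEGF9 and SEMA4D, which were in both lists of like genes, and for ABCC5, the gene most like NEFL within lines; each point is a library. Within ACHN all 4 genes are highest in replicate 1, and NEFL spans the widest range.

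NEFL lies on the minus strand of chromosome 8, with NEFM just before it in chromosome order and DOCK5, GNRH1 and KCTD9 as the next genes on the other side. NEFM had almost no reads, and DOCK5 was at 2.48 to 2.80 FPKM in all 769-P libraries. KCTD9 fell in both lines when libraries were paired, by 0.41 and 0.24 on the log2 scale (limma with Benjamini-Hochberg adjustment, adjusted p = 0.0327 in 769-P and 0.0389 in ACHN), but not when they were unpaired (0.0549 and 0.809). With pairing, 13.9% of all genes were called lower in 769-P and 5.05% in ACHN. No other neighbour that passed the filter was called in either line.

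For the other members the call depended on whether same-numbered libraries were paired. In 769-P, none of the 5 members tested other than NEFL was called when libraries were unpaired, where 5.26% of 14155 genes were called higher and 4.71% lower. With pairing, all 5 were called higher, where 13.6% of genes were called higher and 13.9% lower. With 1 pair left out at a time, 2 or 3 of the 5 were called: LMNA and KRT7 each time, KRT18 without pair 1 or 3 (adjusted p = 0.107 without pair 2), and VIM (0.0559 to 0.099) and KRT8 (0.0575 to 0.167) never. In ACHN no gene of 15116 was called unpaired (0%), while 1238 had an unadjusted p under 0.05. With pairing 2 of the 7 members tested were called, both higher, where 7.14% of genes were called higher and 5.05% lower. Without replicate 3 of ACHN in either group no gene was called paired. Libraries with the same number did vary together within each line, so the paired values are printed beside the unpaired ones.

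The partner keratins KRT8 and KRT18 were higher with siNUF2 in all 3 pairs of both lines. KRT8 was at 110, 106 and 90.6 FPKM against 102, 95.5 and 78.5 FPKM in 769-P, where the groups overlapped. The log2 fold change was 0.17 ± 0.121 (SE) with adjusted p = 0.419 unpaired and 0.0348 paired (SE 0.0393). In ACHN KRT8 was at 93.4, 228 and 210 FPKM against 57.4, 161 and 138 FPKM, with replicate 1 the lowest under both siRNAs. The log2 fold change there was 0.62 ± 0.503, with adjusted p = 0.879 unpaired and 0.0122 paired (SE 0.0545). Pair by pair, KRT8 in ACHN was at 163%, 142% and 152% of control.

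KRT18, its type I partner, was at 76.8, 75.7 and 59.9 FPKM against 69.2, 62.9 and 48.1 FPKM in 769-P, a log2 fold change of 0.26 ± 0.158 (adjusted p = 0.349 unpaired, 0.0211 paired). In ACHN it was at 55.0, 101 and 115 FPKM against 35.8, 66.2 and 80.3 FPKM, a log2 fold change of 0.60 ± 0.394 (adjusted p = 0.813 unpaired, 0.0118 paired). The ACHN pairs were at 154%, 153% and 144% of control, close to those of KRT8. Without replicate 1 of ACHN in either group, the paired fold changes of KRT8 and KRT18 were 0.57 and 0.58, both with adjusted p = 0.0319; without replicate 2 adjusted p was 0.0168 and 0.0186, and without replicate 3 it was 0.0696 and 0.068, past the threshold for neither. The paired difference between the lines was -0.46 ± 0.0655 for KRT8 (adjusted p = 0.0394) and -0.35 ± 0.0591 for KRT18 (adjusted p = 0.0492). Neither call held with any 1 pair of either line left out: without replicate 1 of ACHN the differences were -0.40 and -0.33 (adjusted p = 0.0999 and 0.136), and over all such omissions adjusted p was 0.0696 to 0.138 for KRT8 and 0.0696 to 0.14 for KRT18.

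The KRT8 and KRT18 counts are not fully separate. The genes lie side by side on chromosome 12, KRT8 on the minus strand at chr12:52897187-52949954 and KRT18 on the plus strand at chr12:52948871-52952901 (GRCh38, GENCODE 29). Their exons share 525 bases on opposite strands, 7.6% of KRT8 and 16.3% of KRT18 exon length, and whether reads were counted by strand is not given in the sources used here. KRT8 also has 50 annotated pseudogene copies, whose summed FPKM was 2.55% to 8.83% of KRT8 itself, and KRT18 has 67 copies at 0.436% to 2.3%; how reads were split between them and their parents is unknown.

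KRT7 was higher with siNUF2 in every 769-P pair and lower in every ACHN pair. In 769-P it was at 4.17, 2.89 and 4.21 FPKM against 3.08, 2.02 and 2.38 FPKM. The groups overlapped, and the log2 fold change was 0.58 ± 0.203 (adjusted p = 0.12 unpaired, 0.0148 paired). In ACHN it was at 17.4, 9.17 and 18.3 FPKM against 21.3, 9.62 and 25.3 FPKM, a log2 fold change of -0.26 ± 0.436 (adjusted p = 0.985 unpaired, 0.102 paired). The difference between the responses of the lines was 0.83 ± 0.521 unpaired (adjusted p = 1) and 0.83 ± 0.134 paired (adjusted p = 0.0466). The paired value was also 0.83 without replicate 1 of ACHN (adjusted p = 0.132), and with any 1 pair left out it ran from 0.72 to 0.95 and was not called (adjusted p = 0.0809 to 0.145). Among 16564 genes tested for such a difference, 0% were called unpaired and 1.52% paired. Of the 5 members other than NEFL that passed the filter in both lines, none was called unpaired and 3 were called paired. These were the keratins KRT7, KRT8 and KRT18, each only with all pairs. NES and KRT19 entered this comparison only through ACHN and are left out of the count. KRT7 shares 282 exon bases with KRT7-AS on the opposite strand, which reached at most 2.17 FPKM. It also shares 32 exon bases with the pseudogene KRT87P on the opposite strand, which reached at most 5.21 FPKM.

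KRT19 in ACHN was at 338, 256 and 254 FPKM with siNUF2 against 380, 242 and 210 FPKM, without a common direction over the pairs. The log2 fold change was 0.08 ± 0.247 (adjusted p = 0.991 unpaired, 0.58 paired). In 769-P it had 12 to 20 reads in each library and was not tested.

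**Figure D4:**
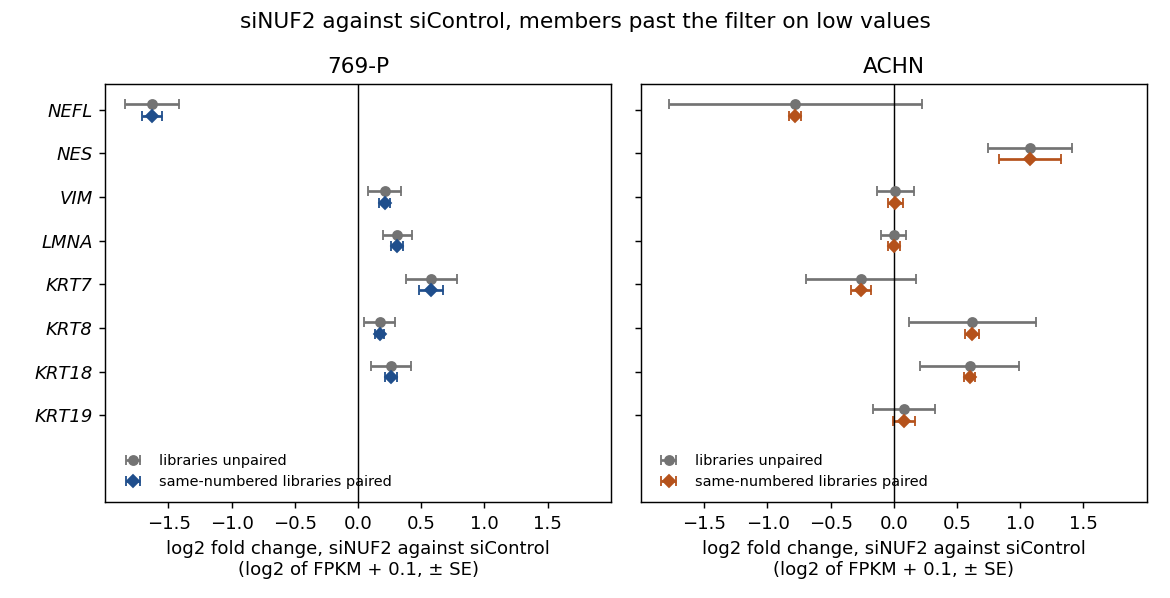
log2 fold changes of siNUF2 against siControl with SE, for the members past the filter on low values in 769-P (left) and ACHN (right); circles take the libraries as unpaired and diamonds pair same-numbered libraries, with n = 3 per group. The values stay in place and the error bars shorten with pairing, most for NEFL, KRT8, KRT18 and KRT7 in ACHN.

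Vimentin and lamin A/C differed little between the siRNAs in ACHN, and both were higher with siNUF2 in every 769-P pair. VIM was at 192, 145 and 160 FPKM against 163, 134 and 136 FPKM in 769-P, a log2 fold change of 0.21 ± 0.129 (adjusted p = 0.355 unpaired, 0.0257 paired). In ACHN VIM was at 154, 137 and 160 FPKM against 154, 126 and 176 FPKM, a log2 fold change of 0.01 ± 0.147 (adjusted p = 0.997 unpaired, 0.892 paired). VIM-AS1, which shares 641 exon bases with VIM on the other strand, was at no more than 1.52 FPKM. LMNA was at 101, 84.6 and 86.8 FPKM against 84.5, 71.0 and 66.5 FPKM in 769-P, and the groups just missed each other. Its log2 fold change was 0.31 ± 0.116 there (adjusted p = 0.141 unpaired, 0.0118 paired) and 0.00 ± 0.0991 in ACHN (adjusted p = 0.999 unpaired, 0.983 paired). The paired difference of the LMNA responses between the lines had an adjusted p of 0.0658.

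NES was higher with siNUF2 in all 3 ACHN pairs, at 1.56, 1.68 and 1.48 FPKM against 0.424, 1.16 and 0.680 FPKM. The groups did not overlap, with the siNUF2 mean at 208% of control. However, the log2 fold change of 1.08 ± 0.332 did not pass the test (adjusted p = 0.447 unpaired, 0.0523 paired). Over 20 other settings of the limma fit, adjusted p ran from 0.0426, paired without replicate 2, to 0.999. The 3 siNUF2 libraries lay close together, and the spread came from the controls, whose reads ran from 74 to 249. In 769-P NES had 5 to 8 reads with siNUF2 and 0 to 5 with siControl. NEFM in ACHN was at 0.0999, 0.152 and 0.0999 FPKM against 0.124, 0.142 and 0.110 FPKM, and with 24 reads or fewer a library no difference was detectable at this depth. NEFH had no read in the 3 ACHN siNUF2 libraries and 2, 1 and 4 in the controls.

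The summed keratin level was higher in every ACHN library than in any 769-P library. The 29 type I and 26 type II keratin genes listed summed to 256, 220 and 193 FPKM in 769-P with siControl and to 637, 673 and 605 FPKM in ACHN. KRT19 made up 34.7% to 59.7% of the sum in ACHN controls and at most 0.085% in 769-P controls. KRT8 made up 39.7% to 43.4% in 769-P controls and 9.0% to 23.9% in ACHN controls. KRT80, a type II keratin that is no member, took 14.1% to 20.5% and 14.4% to 22.7%. Type II exceeded type I keratin in every 769-P control library, by ratios of 1.6, 1.41 and 1.36, and did not in ACHN, at 0.397, 0.985 and 0.897. The log2 difference between the lines was 1.04 (exact permutation test over libraries, two-sided p = 0.1, the smallest that 3 against 3 can give; Benjamini-Hochberg adjusted over 3 ratios 0.15).

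The ratio of VIM to summed keratin was 0.637, 0.606 and 0.704 in 769-P controls and 0.242, 0.187 and 0.291 in ACHN controls, a log2 difference of 1.46 (exact permutation test, two-sided p = 0.1, adjusted 0.15). VIM itself was not told apart between the lines, at 134 to 163 and 126 to 176 FPKM. The ratio of KRT8 to KRT18 was 1.47, 1.52 and 1.63 in 769-P controls and 1.6, 2.43 and 1.72 in ACHN controls, and these overlapped (log2 difference -0.29, exact permutation p = 0.2, adjusted 0.2). With siNUF2 the ratio in 769-P was 1.44, 1.4 and 1.51, and the ACHN libraries gave 1.7, 2.25 and 1.82.

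**Figure D5:**
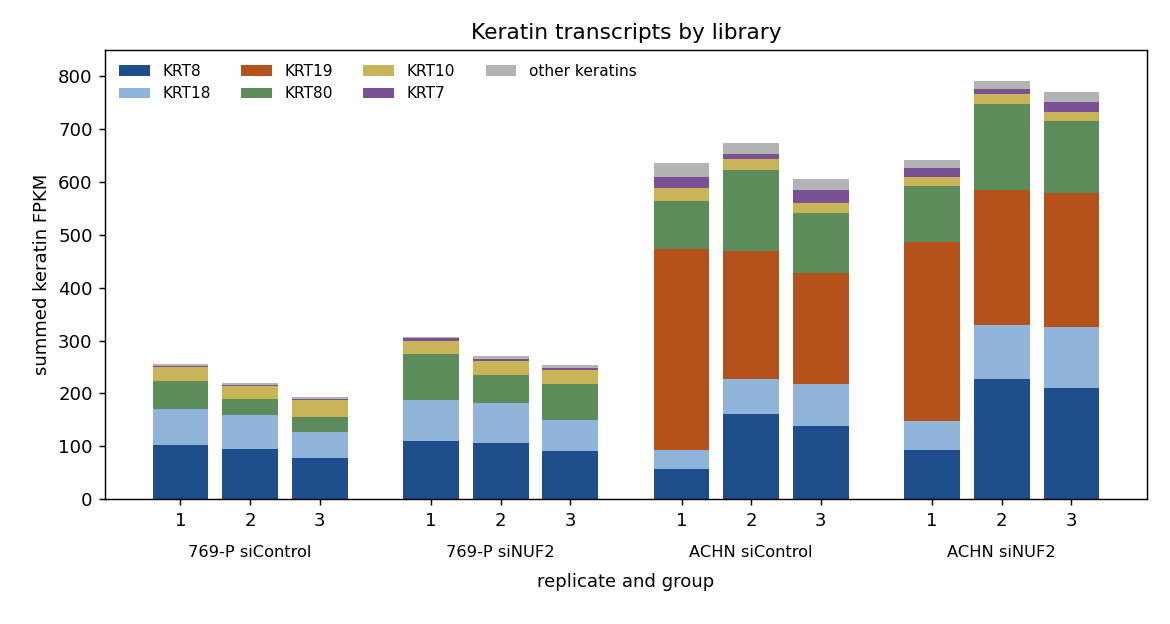
Summed FPKM of the type I and type II keratin genes in each library, stacked by gene from 0, with the 6 named keratins and all others together. KRT19 fills a large share of every ACHN bar and cannot be seen in the 769-P bars, and replicate 1 of ACHN has the smallest KRT8 block of its line under both siRNAs.

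Among the other keratins, few were expressed. Of 29 type I genes, 5 were tested in 769-P and 8 in ACHN; none was called unpaired, and paired the calls were KRT18 higher in 769-P, and KRT18 higher and KRT15 lower in ACHN. KRT15, a keratin of basal epithelium, was at 1.71, 0.396 and 0.941 FPKM against 4.34, 0.778 and 2.99 FPKM in ACHN (log2 fold change -1.21, paired adjusted p = 0.0206, unpaired 0.788). Their median log2 fold changes were 0.23 in 769-P and -0.35 in ACHN, beside -0.01 and 0.01 over all genes. Of 26 type II genes, 3 were tested in 769-P, KRT7, KRT8 and KRT80, with a median of 0.58 and all 3 called higher paired and none unpaired. In ACHN 9 were tested with a median of -0.11, and KRT8 was the one called, only with pairing. With pairing, 13.6% of all genes were called higher and 13.9% lower in 769-P, and 7.14% and 5.05% in ACHN. Unpaired, the shares were 5.26% and 4.71% in 769-P and 0% in ACHN. KRT7, KRT8 and KRT18 are members, so their calls repeat those given above. KRT80 was at 87.4, 53.0 and 66.8 FPKM against 52.4, 31.1 and 29.7 FPKM in 769-P, a log2 fold change of 0.90 ± 0.263 (adjusted p = 0.0758 unpaired, 0.00706 paired), and at 0.21 ± 0.236 in ACHN (0.947 and 0.0656).

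Several further keratins were detected in 1 line and hardly in the other. Under control siRNA KRT5, KRT6A, KRT14 and KRT16, keratins of stratified and basal epithelium, were at 1.14 to 5.85 FPKM in ACHN and under 0.1 FPKM in 769-P. KRT20, a keratin of gut and urothelium, was at 0.625, 1.47 and 0.820 FPKM in 769-P and at most 0.0154 FPKM in ACHN. Such genes entered the comparison only through the line where they are high, so their levels are a description and no count over the list is given. Of the other keratins above 0.5 FPKM in the controls of both lines, KRT80 was higher in ACHN (769-P minus ACHN -1.64 ± 0.271, adjusted p = 0.00193), KRT10 of suprabasal epidermis was higher in 769-P (0.42 ± 0.128, 0.0257), and KRT15 was not called (-0.60 ± 0.577, 0.401).

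Of the type III and type IV filaments other than the members, INA, SYNC and GFAP were above 0.5 FPKM in ACHN controls alone and SYNM in both lines. INA, the neuronal filament alpha-internexin that assembles with neurofilaments, was at 8.16, 4.59 and 6.14 FPKM in ACHN controls and at no more than 0.0193 FPKM in 769-P controls. SYNM, the large filament protein synemin, was at 5, 3.89 and 3.63 FPKM in 769-P and at 1.75, 1.96 and 1.56 FPKM in ACHN (1.23 ± 0.168, adjusted p = 0.000813). SYNC and GFAP, listed with the type III proteins, were at 3.32, 3.63 and 1.64 FPKM and at 0.576, 1.36 and 0.638 FPKM in ACHN controls, and at no more than 0.0179 and 0.0255 FPKM in 769-P controls. INA, SYNC and GFAP passed the filter only through ACHN and are given without a test. Leaving out NEFL, the member VIM in 769-P, only with pairing, was the one type III or type IV gene called with siNUF2. With pairing, 13.6% of all genes were called higher and 13.9% lower in 769-P, and 7.14% and 5.05% in ACHN. Unpaired, the shares were 5.26% and 4.71% in 769-P and 0% in ACHN, where no gene could add a call. With so few genes tested, the lack of calls says little beside these shares. In 769-P 1 gene of each type was tested, with medians of 0.21 for type III and 0.08 for type IV, and in ACHN 3 of each, with medians of 0.07 and 0.21. BFSP1, a beaded filament gene of the lens, rose in 769-P from 0.737, 1.00 and 0.680 to 1.33, 1.43 and 1.6 FPKM (0.80 ± 0.179, adjusted p = 0.0376) and was at -0.04 ± 0.22 in ACHN (0.997); the difference between the lines was not called.

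The lamins moved in different directions in 769-P. LMNB1, the B-type lamin that is highest in dividing cells, fell from 65.9, 64.6 and 59.3 to 47.8, 41.3 and 33.3 FPKM, by 0.63 on the log2 scale (SE 0.133, adjusted p = 0.0315). LMNB1 in ACHN was at 10.9, 22.5 and 15.6 FPKM against 15.7, 29.4 and 23.6 FPKM, a log2 fold change of -0.49 (adjusted p = 0.826 unpaired, 0.0167 paired). LMNB2 was 0.22 higher in both lines, called only with pairing (0.0351 and 0.0433). Under control siRNA LMNB1 was the one lamin higher in 769-P (1.54 ± 0.22, adjusted p = 0.000976).

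Of 16 genes for lamin processing and nuclear envelope partners, 15 were tested in each line. In 769-P 1 rose and 3 fell unpaired, beside 5.26% and 4.71% of all genes, and 1 was called higher and 4 lower paired, beside 13.6% and 13.9% (median -0.06). In ACHN none was called unpaired and 1 was called higher paired, beside 7.14% of all genes (median 0.02). The gene that rose was ICMT, which methylates the farnesylated cysteine of prelamin A and of other CAAX proteins: 23.9, 21.9 and 23.2 FPKM against 14.3, 12.5 and 12.5 FPKM (0.83 ± 0.0848, adjusted p = 0.00514). In ACHN ICMT was at 26.5, 23.8 and 24.1 against 16, 15.8 and 14.9 FPKM, without overlap (0.68 ± 0.0912, adjusted p = 0.153 unpaired, 0.0118 paired). RCE1, the protease that acts just before ICMT, fell by 0.33 in 769-P (adjusted p = 0.0286). The lamin-binding TMPO and LEMD3 of the inner nuclear membrane fell by 0.57 and 0.34 (0.0202 and 0.0364), and SYNE2, which links the nucleus to the cytoskeleton, was at -0.26, called only with pairing (0.0351).

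Of 15 genes that link filaments to each other or to junctions, 13 were tested in 769-P. Of these 2 rose unpaired, beside 5.26% of all genes, and 3 paired, beside 13.6%, and none was called lower (median 0.10). In ACHN 12 were tested, none was called unpaired and 4 rose paired, beside 7.14% of all genes (median 0.13). PERP, a desmosomal membrane protein that is also a p53 target, rose from 17.2, 19.8 and 14.9 to 47.6, 51.4 and 56.1 FPKM in 769-P (1.59 ± 0.116, adjusted p = 0.00271). PERP in ACHN was at 32.8, 19.3 and 22.6 FPKM against 15.4, 11.5 and 11.9 FPKM, without overlap (0.93 ± 0.225, adjusted p = 0.347 unpaired, 0.0122 paired). PKP3, a desmosomal plaque protein, rose by a log2 of 0.49 in 769-P (0.0182). PLEC, whose protein plectin crosslinks filaments, was 0.43 higher in 769-P and 0.24 higher in ACHN, each called only with pairing (0.0125 and 0.0369). Genes for filament turnover and organisation were not called unpaired (0 of 5 in each line, medians -0.12 and 0.03). STUB1, a ubiquitin ligase, was the only one called paired, in 769-P (0.32, 0.0289), where 13.6% of all genes were called higher.

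Of 7 kinases that phosphorylate vimentin, PAK2 fell in 769-P, from 23.5, 23.1 and 24.2 to 18.7, 17.4 and 16 FPKM (by 0.43 on the log2 scale, adjusted p = 0.0219). In ACHN PAK2 was at 16.9, 16.5 and 17.2 FPKM against 21.2, 18.3 and 21.8 FPKM (-0.25, adjusted p = 0.592 unpaired, 0.0474 paired). The mitotic kinases PLK1 (-0.29 in 769-P, 0.00997) and AURKB (0.23 in ACHN, 0.0406) were called only with pairing. Of the 7 kinases, 1 was called lower unpaired and 2 paired in 769-P, beside 4.71% and 13.9% of all genes. In ACHN 1 was called higher and 1 lower, only paired, beside 7.14% and 5.05% of all genes. The list medians were -0.07 in 769-P and 0.09 in ACHN.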

How the data were processed

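Libraries were grouped by the line and siRNA in their labels. The authors deposited FPKM per gene, without counts; the submitters' processing notes name HISAT2 2.0.5, featureCounts 1.5.0-p3 and hg38, and the study's methods name fastp. Annotation and strand setting are not given in the sources used here. GENCODE 29 exon lengths matched 58039 of 58302 gene IDs, and 96.3% of values under 1000 reads came out within 0.05 of a whole read, which gave read numbers for 34984 genes.

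FPKM were scaled by a trimmed mean of log ratios (30% of log ratios and 5% of levels trimmed). log2(FPKM + 0.1) was fitted with limma 3.58.1 (R 4.3.3; eBayes with trend) for genes at 0.5 FPKM or more in at least 3 libraries. Calls are at a Benjamini-Hochberg adjusted p under 0.05 over all genes tested. Each line was fitted alone, the lines were compared under siControl, and the difference of responses was an interaction over 12 libraries. The pairing was checked by correlating deviations from group means: same-numbered libraries gave r of 0.19 to 0.359 in 769-P and r of 0.46 to 0.735 in ACHN, whereas across lines r was -0.0569 to 0.0429. The source of the pairing is the replicate number in the titles. The paired fit adds that number as a block within each line.

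The members and gene lists were chosen with earlier results of these data known. Named genes were the members, at most 4 genes per list by smallest p or highest control level, the 5 most like NEFL, its chromosomal neighbours, antisense and pseudogene copies, and NUF2. limma-voom on recovered reads and leaving out a replicate number of a line in both groups were chosen after seeing the data. Some list results are not reported here. The fit was tested on simulated data. Python 3.11.15, pandas 2.3.3, SciPy 1.17.1 and matplotlib 3.10.9 were used.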

Additional observations from a re-analysis of the deposited data

Results flagged for a closer look

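KRT7, KRT8 and KRT18 were singled out because the response to siNUF2 differed between 769-P and ACHN by a test of the difference itself, in the fit that pairs same-numbered libraries (limma with Benjamini-Hochberg adjustment). The difference, 769-P minus ACHN on the log2 scale, was 0.83 for KRT7 (adjusted p = 0.0466), -0.46 for KRT8 (0.0394) and -0.35 for KRT18 (0.0492). Unpaired, each had an adjusted p of 1. Without replicate 1 of ACHN the paired differences were 0.83, -0.40 and -0.33 (adjusted p = 0.132, 0.0999 and 0.136), and none of the 3 was called with any single pair of either line left out. KRT7 was also singled out because every pair in 769-P moved up and every pair in ACHN moved down: the mean log2 difference over pairs was 0.57 in 769-P and -0.27 in ACHN.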

How the results depend on the processing

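Pairing by replicate number (the replicate block) moved the counts of genes called from 1412 to 3898 in 769-P, from 0 to 1843 in ACHN, and from 0 to 252 for the difference of responses; members called went from 0 to 5, 0 to 2 and 0 to 3, and it changed no call of a member between the lines. In 769-P the count was 635 without a filter on low values, 700 with all 12 libraries in one fit, 160 at an adjusted p under 0.01, and 357 to 1144 with single libraries left out. In ACHN it was 171 with all 12 libraries in one fit and 0 with any single library left out; the limma-voom fit also called 0, with 1216 genes at an unadjusted p under 0.05. Without replicate 1, 2 or 3 of a line in both groups the paired fit called 2346, 1691 and 3034 genes in 769-P (3, 2 and 3 members) and 508, 1088 and 0 in ACHN (2, 3 and 0 members); unpaired it called 700, 0 and 53 in 769-P and 0 each in ACHN. For the difference of responses the paired fit called 0, 0 and 122 genes without replicate 1, 2 or 3 of 769-P and 2, 0 and 1 without those of ACHN, with no member in any (unpaired 3 without replicate 3 of 769-P, otherwise 0). That difference was called for 2 genes at a pseudocount of 0.01, 15 without a filter, and 0 to 1 with single libraries left out. Between the lines 9460 genes were called, 6278 at 1 FPKM or more in every library and 7287 to 8128 with single libraries left out. Counts of members called are not given for this comparison. They take in KRT19, which passed the filter on low values only through ACHN. NEFL changed sign with single libraries left out. It ran from -1.67 to 0.10 in ACHN (0.10 without siControl replicate 1). Between the lines it ran from -0.54 to 0.80 (0.80 without that same library). For the difference of responses it ran from -1.73 to 0.03 (0.03 without siNUF2 replicate 1). The log2 ratios between the lines ran with single libraries left out from -0.41 to -0.11 for KRT8 to KRT18, 0.63 to 1.29 for type II to type I keratins, and 1.29 to 1.61 for VIM to keratins. Causes were not tested, beyond fewer libraries or genes by construction. Depth limits NEFM, NEFH, and NES and KRT19 in 769-P, at 24 reads or fewer a library.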

Other observations

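Of 12 neuronal genes, 10 in 769-P and 9 in ACHN were under 0.5 FPKM in every library, and STMN2, a growth cone protein, was listed at 0 in all 12. The summed level was 58 to 75.1 FPKM in 769-P. Nearly all of it was UCHL1, a ubiquitin hydrolase of neurons and of many tumour cells, at 64.8, 56.9 and 62.3 FPKM with siControl and 71.2, 67.2 and 74.2 FPKM with siNUF2 (log2 fold change 0.22; limma with Benjamini-Hochberg adjustment, adjusted p = 0.123 unpaired and 0.0235 paired). In ACHN the sum was 3.9 to 8.32 FPKM. SYT1, a synaptic vesicle protein, was at 2.23, 4.10 and 3.69 FPKM against 3.50, 6.10 and 6.46 FPKM there (-0.64; adjusted p = 0.698 unpaired, 0.0156 paired), with replicate 1 the lowest under both siRNAs.

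Of 9 renal tubule and ccRCC genes, 6 were tested in each line. PAX8 fell in 769-P from 70.6, 58.6 and 69.8 to 50.7, 44.7 and 49.5 FPKM (by 0.44 on the log2 scale, adjusted p = 0.036). With pairing, where 13.9% of all genes were called lower and 13.6% higher in 769-P, the calls included the kidney cadherins CDH16 (-0.61, 0.00582) and CDH6 (-0.55, 0.00734), both lower, and PAX2 (0.34, 0.0477), higher. LHX1 was at 20, 21 and 22.3 FPKM against 16.9, 18.4 and 13.8 FPKM (0.38, paired adjusted p = 0.0591). In ACHN none of the 6 was called, paired or unpaired; PAX8 was at 172, 57.6 and 159 FPKM against 199, 57.1 and 144 FPKM, with replicate 2 the lowest under both siRNAs. The list medians were -0.31 in 769-P and -0.21 in ACHN. Fibroblast markers summed to 0.0882 to 0.241 FPKM in 769-P and 1.4 to 6.21 FPKM in ACHN, where COL1A1 reached 3.87 FPKM; 2 of 5 were tested in ACHN and neither was called. Of 125 antisense and pseudogene copies of the members, 3 were tested in 769-P and 5 in ACHN and none was called. Unpaired, 4.71% of all genes were called lower and 5.26% higher in 769-P, and 0% in ACHN. Paired, the ACHN shares were 5.05% lower and 7.14% higher. With so few genes tested, the lack of calls says little beside these shares.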
